A study of Homo sapiens with 8 samples.

Results

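The HOX genes encode homeodomain transcription factors and lie in 4 clusters, HOXA, HOXB, HOXC and HOXD. The members described here are the protein-coding genes that the GENCODE annotation of hg19 names HOXA, HOXB, HOXC or HOXD followed by a number. There are 39 of them among 20133 protein-coding genes on the autosomes and sex chromosomes. HOXA holds 11 genes within 107.1 kb (chr7:27132612-27239710), HOXB 10 within 200.2 kb (chr17:46605888-46806112), HOXC 9 within 117.2 kb (chr12:54332615-54449814) and HOXD 9 within 98.2 kb (chr2:176957449-177055635).

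The number in a HOX symbol gives the paralog group, which follows the order of the genes along the chromosome. Low numbers lie at the 3′ end of a cluster and are used in anterior parts of the embryo, and high numbers lie at the 5′ end and are used in posterior parts, including the hindgut. Polycomb complexes keep unused HOX genes silent, MLL complexes keep used ones active, and acetylated H3K27 is a mark of active promoters and enhancers. Succinylation of H3K23 (H3K23su) is an acyl modification of a neighbouring lysine of the same histone tail.

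CUT&Tag, in which an antibody directs a transposase to chromatin, was run for H3K23su and for H3K27ac in HCT15, a human cell line established from a colorectal cancer. Parental cells (HCT15-Pa) were compared with HCT15 cells resistant to 5-fluorouracil (HCT15-FR), with 2 libraries per line and mark and 8 in all. The labels give DMSO for HCT15-Pa and 20 μg/mL 5-FU for HCT15-FR, and the study's methods add that the resistant cells spent 3 days without the drug before use. Each library was made from 50000 cells. One parental and one resistant line were used, so resistance and any other difference between them cannot be told apart. Nothing says that the libraries of a line came from separate cultures, and the spread between them may be technical.

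The deposited lists hold the position of each peak and its −log10 P value from MACS2, called separately in each library. They hold no read counts, so they do not give the depth behind a peak, the study's read totals were not used here, and a missing peak was not detectable at the authors' threshold. The 4 H3K23su lists ran from 65364 to 68365 peaks and the 4 H3K27ac lists from 70600 to 76676. Peaks covered 1.19 times as much of the genome in HCT15-FR as in HCT15-Pa cells for H3K23su and also 1.19 times for H3K27ac, a difference that moves with every comparison of lengths below, so cluster lengths are also given as a share of the library. Of 12 genes that mark colon epithelium, 8 had H3K23su peaks and 9 had H3K27ac peaks near the start in all 4 libraries. Over all protein-coding genes the shares were 52.5% and 57.1%. CDX1 and KRT20 had no peak of either mark in HCT15-Pa cells, and CDH17 had no H3K27ac peak in any library. Among markers of blood, mesenchyme, endothelium, neurons and liver, CD14 had both marks in all libraries and SPI1, COL1A1 and APOA2 had H3K27ac, whereas PTPRC, CD3E, VWF and ALB had no peak of either mark.

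The readouts for each gene were the presence of a peak within 2 kb of the 5′ end of the annotated gene and the length covered by peaks in that window. A gene with a peak in both libraries of 1 line and in neither of the other was called FR-only or Pa-only. The 5′ end of the gene is the most upstream start among its annotated transcripts. It lies more than 2 kb from the start of the MANE Select transcript, the agreed reference transcript, for 11 of the 39 genes. These are HOXA6, HOXA9, HOXA10, HOXB3, HOXB7, HOXC4, HOXC6, HOXC9, HOXD3, HOXD10 and HOXD11. The windows of HOXA3 and HOXA6 overlap, and so do those of HOXB3 and HOXB6, whose 5′ ends are 80 bp apart.

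**Figure D1:**
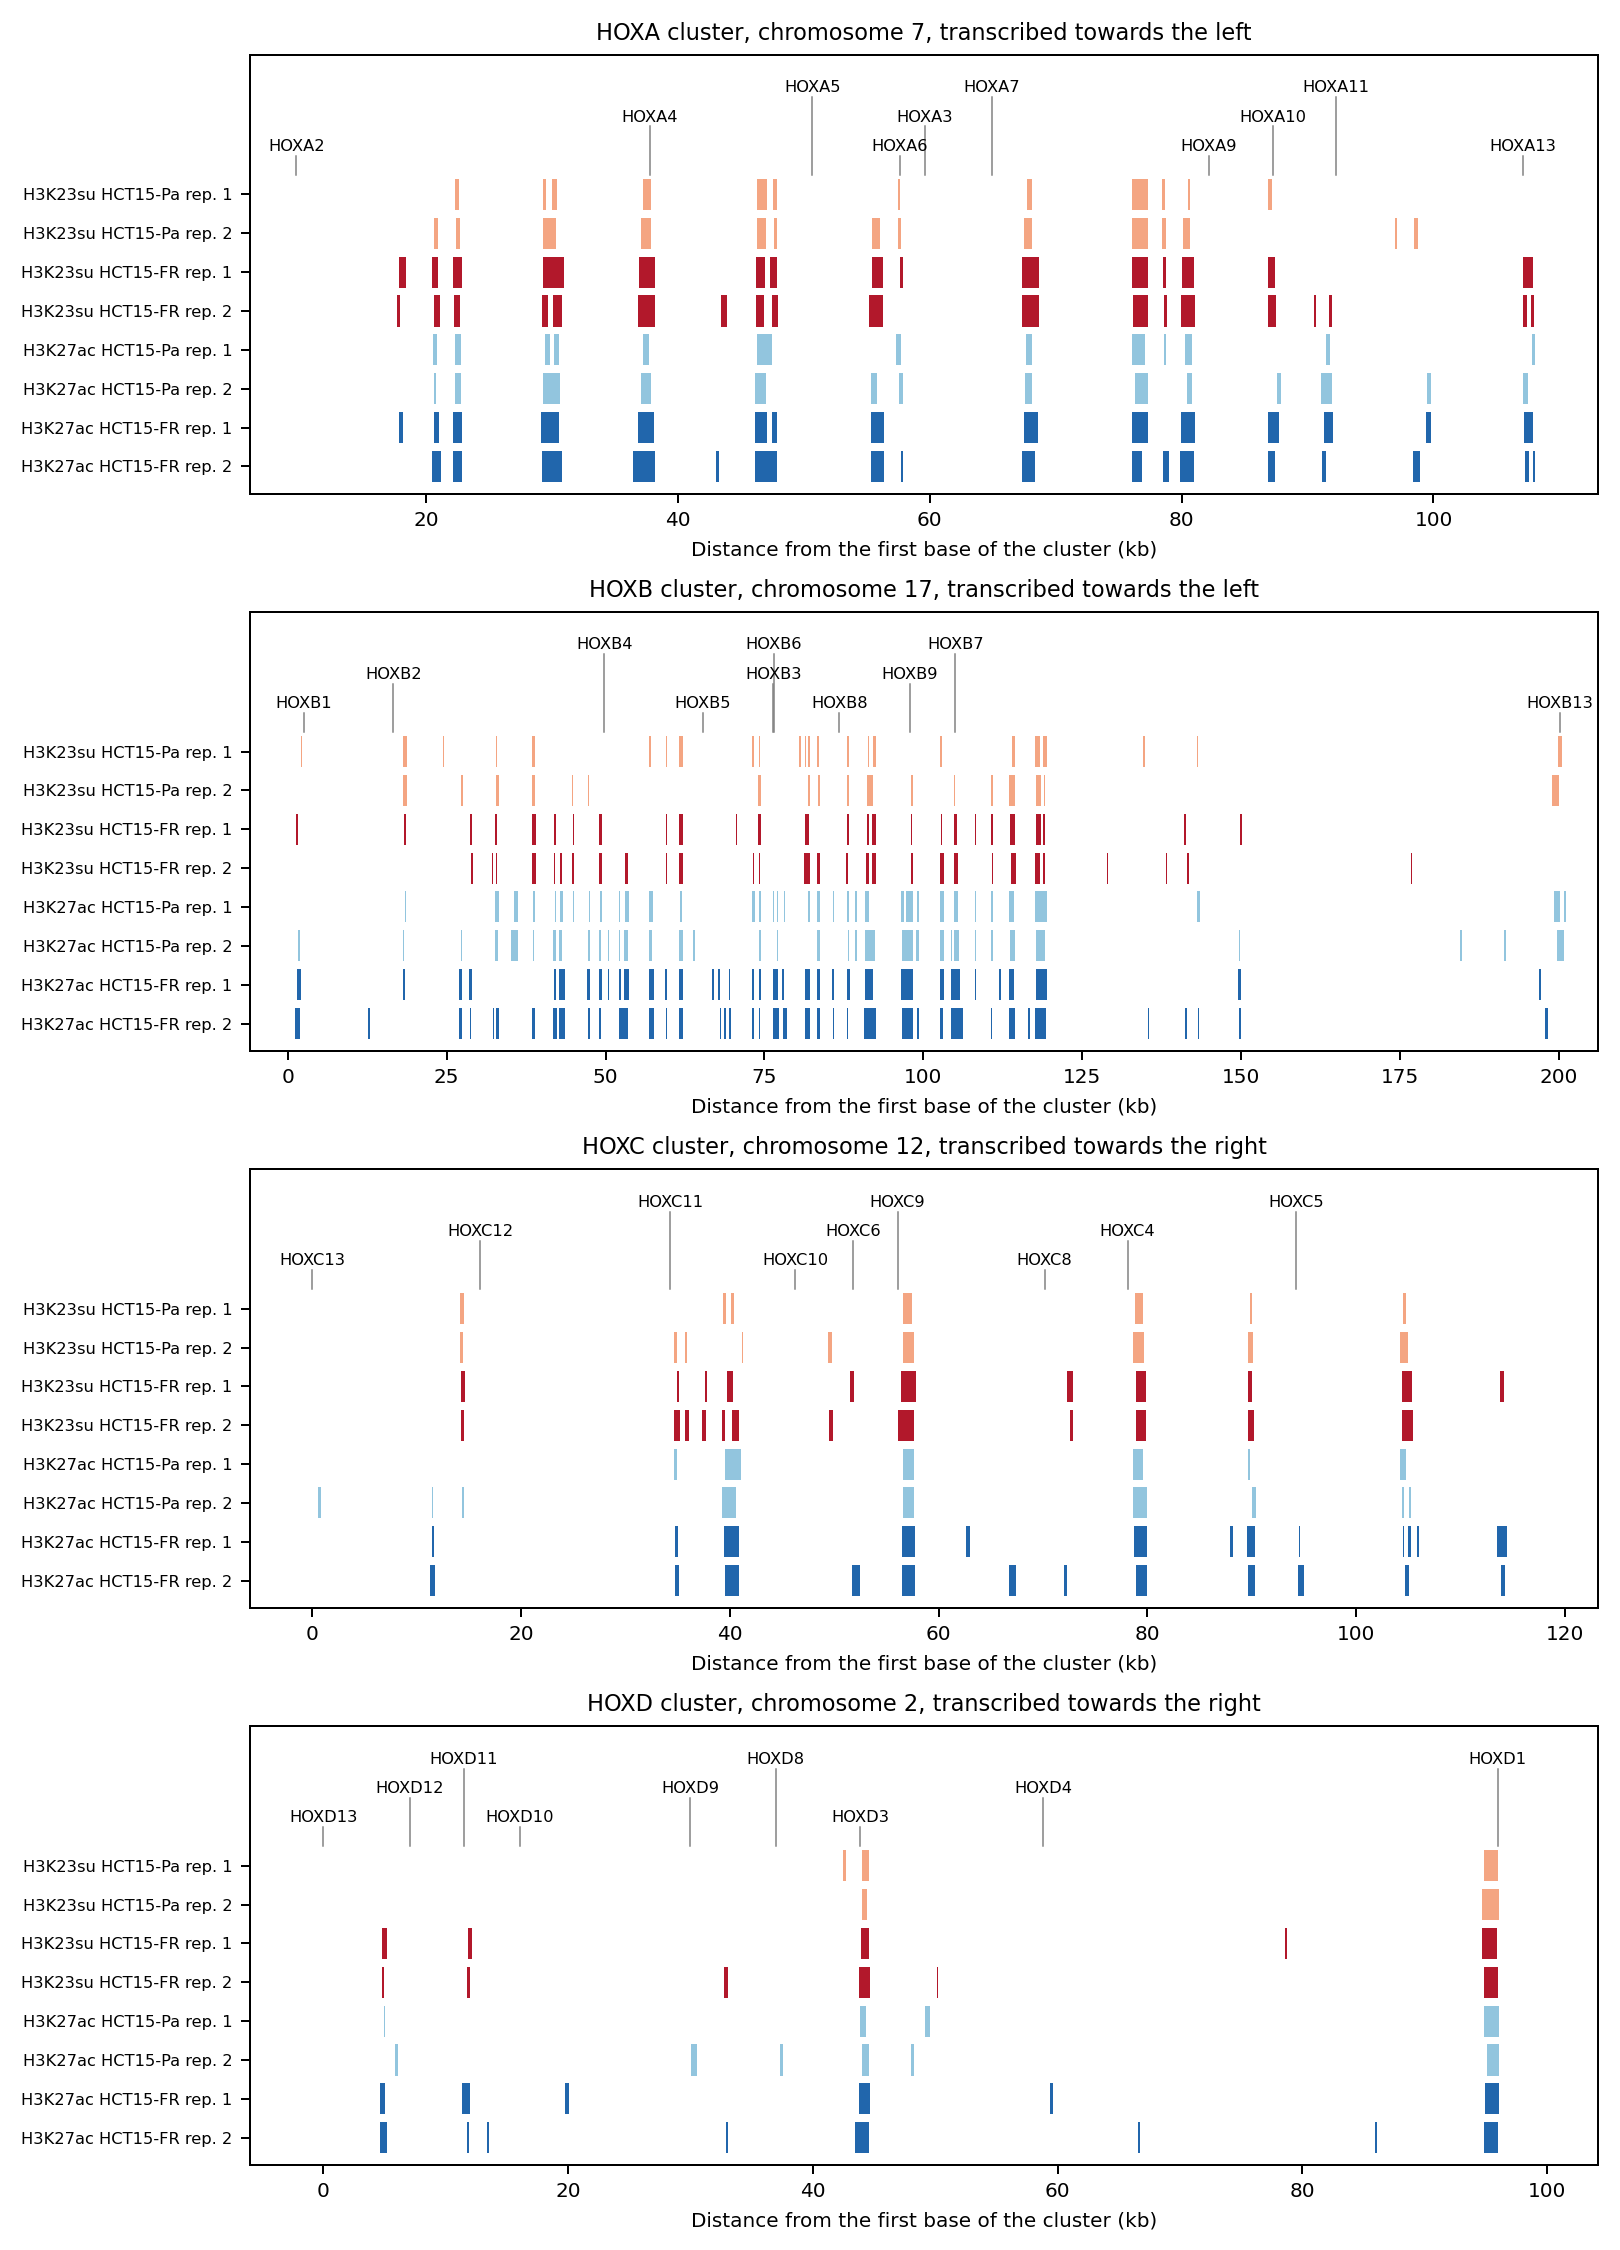
Peaks of the 8 libraries along the 4 HOX clusters, with the distance from the first base of each cluster in kb on the x axis, 1 row per library (H3K23su in orange and red, H3K27ac in blue, HCT15-Pa pale and HCT15-FR dark) and the 5′ ends of the genes above. The HOXA map starts 6 kb into the cluster. Peaks at HOXB13 appear in the 4 HCT15-Pa rows and not at the same place in the HCT15-FR rows, those at HOXD11 only in the HCT15-FR rows, and the HOXD cluster has few peaks apart from those at HOXD1 and HOXD3.

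The first question was how many HOX genes carried each mark. H3K23su peaks lay near 15 and 17 of the 39 genes in the HCT15-Pa libraries and near 23 and 19 in the HCT15-FR libraries. The lines did not overlap, with a difference of 5 genes (p = 0.333 by an exact permutation test, two-sided, which cannot give less with 2 libraries a line). It was 3 without the first HCT15-FR library and 8.50 with windows of 5 kb. H3K27ac peaks lay near 21 and 27 genes in HCT15-Pa and near 24 and 26 in HCT15-FR cells. Here the lines overlapped, with a difference of 1 gene (exact permutation test, p = 1.000) that became -2 without the first HCT15-Pa library.

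The share of HOX genes with an H3K23su peak was 38.5% and 43.6% for HCT15-Pa and 59.0% and 48.7% for HCT15-FR cells, where the share of all genes ran from 57.9% to 58.9%. For H3K27ac it was 53.8% and 69.2% in HCT15-Pa and 61.5% and 66.7% in HCT15-FR cells, where that of all genes ran from 63.3% to 64.6%. Presence in all 4 libraries of a mark was less frequent among the HOX genes. H3K23su was present in all 4 libraries at 10 of 39 HOX genes (25.6%), against 52.5% of all protein-coding genes. For H3K27ac the numbers were 16 of 39 (41.0%) and 57.1%. The share without any H3K23su peak, 14 of 39 (35.9%), was close to the 35.3% of all genes, and the share without any H3K27ac peak was 6 of 39 (15.4%) against 28.1%. Apart from FR-only and Pa-only genes, the remaining HOX genes had peaks in some libraries without such an order. This mixed class held 11 HOX genes for H3K23su (28.2%, against 8.69% of all genes) and 15 for H3K27ac (38.5%, against 11.3%).

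Both marks were present in all 8 libraries at 9 HOX genes, against 51.7% of all genes. HOXA4, HOXA6, HOXA9, HOXB8, HOXC4, HOXC9, HOXD1 and HOXD3 were among them. A further 7 genes had H3K27ac in all 4 libraries but H3K23su in fewer, and 5 of these lie in HOXB (HOXB3, HOXB4, HOXB6, HOXB7 and HOXB9). Of these, HOXB3 and HOXB6 have nearly the same window. The reverse held for HOXC12 alone. No peak of either mark was listed near HOXA2, HOXA5, HOXA7, HOXC10, HOXD10 or HOXD13 in any library. Around the MANE Select starts both marks were present in all 8 libraries at 7 genes. HOXA6, HOXA9, HOXC4, HOXC9 and HOXD3 then left the set, and HOXA10, HOXB7 and HOXC6 entered it.

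**Figure D2:**
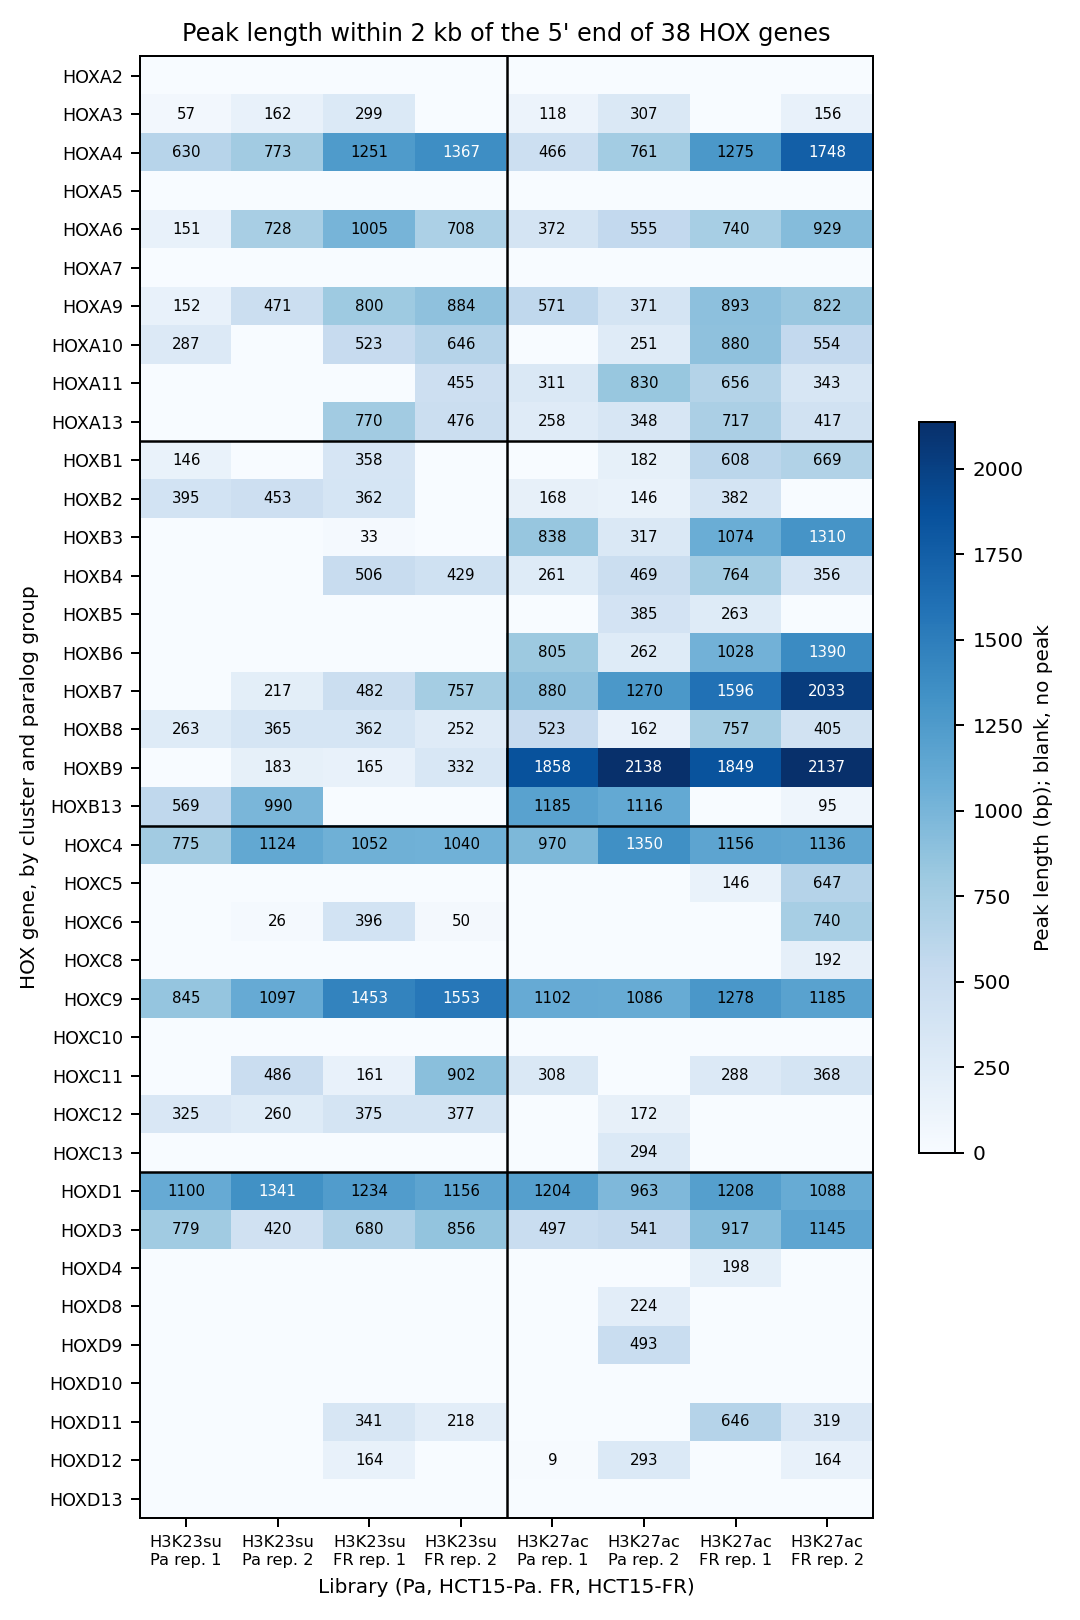
Length covered by peaks (bp, colour and number, blank where no peak was listed) within 2 kb of the 5′ end of 38 of the 39 HOX genes (rows, by cluster and paralog group) in the 8 libraries (columns, H3K23su on the left and H3K27ac on the right). HOXC4, HOXC9, HOXA4 and HOXD1 are filled across all columns, HOXB9 reaches 2138 bp in H3K27ac against at most 332 bp in H3K23su, and HOXB13 is filled mainly in the HCT15-Pa columns.

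HOXB13, the most 5′ gene of its cluster and a posterior gene used in the distal colon, rectum and prostate, differed between the lines in the direction opposite to most of the clusters. Its H3K23su peaks covered 569 and 990 bp in the HCT15-Pa libraries and none of the window in either HCT15-FR library. HOXB13 was the only Pa-only gene of the family for this mark, 1 of 39 against 1.63% of all genes. For H3K27ac its peaks covered 1185 and 1116 bp in HCT15-Pa and 0 and 95 bp in HCT15-FR cells. The parental libraries were the longer ones in both marks and did not overlap with the resistant ones, with differences of -779.5 bp for H3K23su and -1103 bp for H3K27ac (exact permutation test, p = 0.333 each, the smallest possible). The parental peaks were of ordinary strength, with −log10 P scores of 3.86 and 5.34 for H3K23su, at the 28.4th and 76.3rd percentile of their lists. The H3K27ac peak of 95 bp in the second HCT15-FR library belonged to another region, so the merged region at the 5′ end of HOXB13 was Pa-only in both marks (H3K23su chr17:46804850-46806337, H3K27ac chr17:46805173-46806648). HOXB13 was also Pa-only for H3K27ac with windows of 1 kb and with the stronger 50% of each list. With that 50% its H3K23su call was lost. The 71 bases that lie under the peaks of all 4 HCT15-Pa libraries are shown because they mark the place that the HCT15-FR lists lack. They are within a coding exon of HOXB13, 273 to 343 bp from its 5′ end (hg19, chr17:46805769-46805839, minus strand), with CpG dinucleotides in capitals.
HOXB13: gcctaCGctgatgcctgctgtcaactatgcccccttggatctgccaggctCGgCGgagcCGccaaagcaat
This stretch was 62.0% G+C and held 4 CpGs.

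HOXA13, HOXB4 and HOXD11 were FR-only for H3K23su. These 3 genes make 7.69% of the 39, where the share of all genes is 1.90%. For H3K27ac HOXC5 and HOXD11 were FR-only, 5.13% against 1.48%, and no gene was Pa-only, against 2.09%. With 39 genes, these shares rest on 3, 2 and 0 genes. Without the second HCT15-Pa library the H3K23su count of FR-only genes became 7 and without the second HCT15-FR library 5, since fewer libraries then have to meet the rule.

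HOXD11, a posterior gene best known from limb and kidney development, was FR-only in both marks. H3K23su peaks covered 0 and 0 bp near it in HCT15-Pa and 341 and 218 bp in HCT15-FR cells, and H3K27ac peaks covered 0 and 0 bp in HCT15-Pa and 646 and 319 bp in HCT15-FR cells. None of the parental libraries had a peak there and all 4 resistant libraries did. The scores were low to moderate, between 3.29 and 4.94. The peaks lie near the annotated 5′ end of the gene. Around the MANE Select start of HOXD11, 3064 bp downstream, no H3K23su peak was listed and 146 bp of H3K27ac in 1 HCT15-FR library. The 111 bases common to the 4 HCT15-FR peaks lie 339 to 449 bp from the 5′ end (hg19, chr2:176969283-176969393, plus strand) and are printed because they were under a peak in every resistant and no parental list, with CpGs in capitals.
HOXD11: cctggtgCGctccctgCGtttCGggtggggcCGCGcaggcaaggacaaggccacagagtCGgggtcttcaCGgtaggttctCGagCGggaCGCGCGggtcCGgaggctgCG
This stretch was 71.2% G+C, with 14 CpGs and an observed-to-expected CpG ratio of 1.03.

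HOXA13, which patterns the hindgut and the distal limb, was FR-only for H3K23su and marked by H3K27ac in every library. H3K23su peaks covered 0 and 0 bp in HCT15-Pa and 770 and 476 bp in HCT15-FR cells. H3K27ac peaks covered 258 and 348 bp in HCT15-Pa and 717 and 417 bp in HCT15-FR cells. The lines did not overlap in either mark, and H3K27ac alone was present in the parental line. The 129 bases under the peaks of both marks in HCT15-FR cells lie 323 to 195 bp upstream of the 5′ end of HOXA13 (hg19, chr7:27239905-27240033, minus strand), and are shown as the posterior HOXA counterpart of the HOXB13 stretch.
HOXA13: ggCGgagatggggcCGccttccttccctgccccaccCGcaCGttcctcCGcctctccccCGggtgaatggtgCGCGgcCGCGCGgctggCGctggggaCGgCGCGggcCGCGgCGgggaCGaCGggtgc
It was 79.8% G+C and held 20 CpGs, again in capitals.

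HOXB4, a gene known for its part in haematopoietic stem cells, also owed its call to H3K23su alone. H3K23su peaks covered 0 and 0 bp in HCT15-Pa and 506 and 429 bp in HCT15-FR cells, within an intron at chr17:46654779-46655287. H3K27ac peaks covered 261 and 469 bp in HCT15-Pa and 764 and 356 bp in HCT15-FR cells. The H3K27ac lengths overlapped between the lines, while the scores were 3.68 and 3.84 in HCT15-Pa and 8.91 and 7.92 in HCT15-FR cells. HOXC5, of the middle of the HOXC cluster, had no H3K23su peak, and its H3K27ac peaks covered 0 and 0 bp in HCT15-Pa and 146 and 647 bp in HCT15-FR cells, over its coding exon at chr12:54427002-54427648. HOXA13, HOXB4, HOXB13 and HOXD11 kept their H3K23su class with lists of equal length, with a common minimum score, with windows of 1 kb and with every annotated transcript start. With windows of 5 kb HOXB4 was no longer FR-only for H3K23su, with the MANE Select start HOXD11 was not, and with the stronger 50% of each list all 4 calls were lost.

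Most genes with longer peaks in 1 line had them in HCT15-FR cells. H3K23su peaks were longer in both HCT15-FR libraries than in either HCT15-Pa library at 11 of 39 genes, where the share of all genes is 27.6%, and the reverse held at 2 genes, where it is 5.39%. For H3K27ac the counts were 14 genes against a background of 22.4%, and 1 gene against 9.19%. The first of these counts equals 28.2% of the 39 genes in the H3K23su comparison and so was near its background. In both marks together 8 HOX genes (20.5%) were longer in HCT15-FR and 1 (2.56%) in HCT15-Pa cells, against 11.7% of all genes and 422 of 20133. Among the 8 genes were HOXA4, HOXA9, HOXA10, HOXA13, HOXB7, HOXC9 and HOXD11, and the single gene was HOXB13. The median difference, HCT15-FR minus HCT15-Pa, was 40 bp for H3K23su and 96 bp for H3K27ac over the HOX genes. Over all 20133 genes it was 0 bp for both marks. Among genes with a peak of either mark in any library it was 96.5 and 174 bp over 33 HOX genes and 106 and 54.5 bp over 14762 genes in general.

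**Figure D3:**
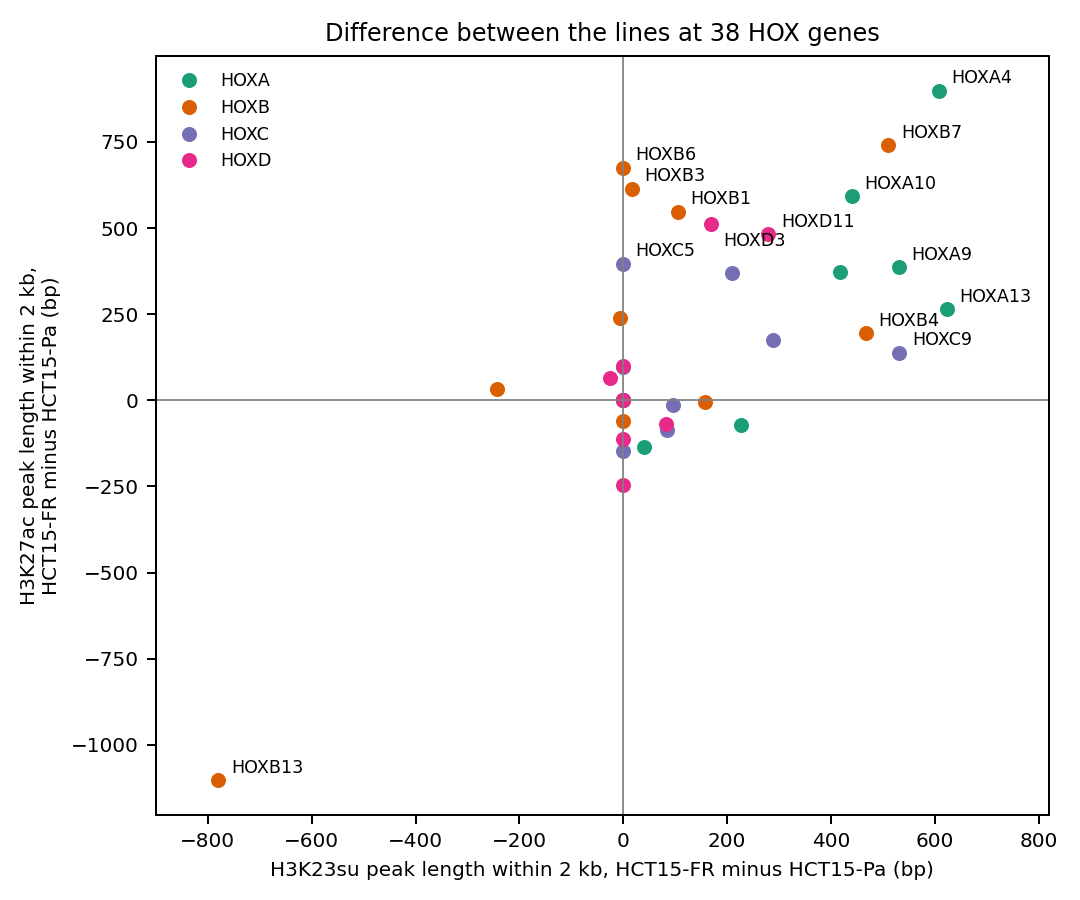
Difference in peak length within 2 kb of the 5′ end, HCT15-FR minus HCT15-Pa (means of 2 libraries, bp), for H3K23su on the x axis and H3K27ac on the y axis, with 1 point for each of 38 HOX genes, coloured by cluster. HOXB13 stands alone at -779.5 and -1103 bp, and HOXA4 lies farthest in the other direction at 607.5 and 898 bp.

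Several HOXA genes had longer peaks in HCT15-FR cells in both marks. At HOXA4, a gene of the anterior to middle part of the cluster, H3K23su peaks covered 630 and 773 bp in HCT15-Pa and 1251 and 1367 bp in HCT15-FR cells. H3K27ac peaks at HOXA4 covered 466 and 761 bp in HCT15-Pa and 1275 and 1748 bp in HCT15-FR cells. Both resistant libraries exceeded both parental ones in each mark, by 607.5 and 898 bp on average. At HOXA9, a posterior gene with a known part in leukaemia, H3K23su covered 152 and 471 bp in HCT15-Pa and 800 and 884 bp in HCT15-FR cells, and H3K27ac 571 and 371 bp in HCT15-Pa and 893 and 822 bp in HCT15-FR cells. The neighbouring HOXA10 had 287 and 0 bp of H3K23su in HCT15-Pa and 523 and 646 bp in HCT15-FR cells, and 0 and 251 bp of H3K27ac in HCT15-Pa and 880 and 554 bp in HCT15-FR cells. The peaks at the 5′ end of HOXA9 lie within 2 kb of the MANE Select start of HOXA10, where both marks were present in all libraries, and none lay near the MANE Select start of HOXA9.

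Values at HOXA6 and HOXA11 were less separated. HOXA6 had 151 and 728 bp of H3K23su in HCT15-Pa and 1005 and 708 bp in HCT15-FR cells, which overlap, and 372 and 555 bp of H3K27ac in HCT15-Pa and 740 and 929 bp in HCT15-FR cells, which do not. HOXA11 had H3K23su in the second HCT15-FR library only, and H3K27ac lengths of 311 and 830 bp in HCT15-Pa and 656 and 343 bp in HCT15-FR cells, with no order between the lines.

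Near the 5′ ends of its 10 genes, HOXB had H3K27ac in all 4 libraries at 6 and H3K23su in all 4 at 1. HOXB3 and HOXB6, whose windows nearly coincide, are both among the 6. At its MANE Select start HOXB7 also had H3K23su in all 4 libraries. HOXB9, of the posterior group, had the longest H3K27ac cover of the family, 1858 and 2138 bp in HCT15-Pa and 1849 and 2137 bp in HCT15-FR cells, and these values were alike in the lines. Its H3K23su peaks covered 0 and 183 bp in HCT15-Pa and 165 and 332 bp in HCT15-FR cells. HOXB6 was the 1 gene with H3K27ac in all libraries and H3K23su in none, with 805 and 262 bp of H3K27ac in HCT15-Pa and 1028 and 1390 bp in HCT15-FR cells. HOXB3, whose window is nearly that of HOXB6, had H3K27ac lengths of 838 and 317 bp in HCT15-Pa and 1074 and 1310 bp in HCT15-FR cells. The lines did not overlap at either gene. The study's methods give the broad option of MACS2 for H3K27ac only, though the widest peak of a list was 3738 to 4150 bp for H3K27ac and 3478 to 3789 bp for H3K23su, so the lengths of the marks are set side by side and not tested against each other.

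Near the annotated 5′ end of HOXB7 both marks were longer in HCT15-FR cells. H3K23su peaks covered 0 and 217 bp in HCT15-Pa and 482 and 757 bp in HCT15-FR cells, and H3K27ac peaks 880 and 1270 bp in HCT15-Pa and 1596 and 2033 bp in HCT15-FR cells. At the MANE Select start of HOXB7, 22555 bp away, H3K23su covered 1000 and 490 bp in HCT15-Pa and 662 and 1350 bp in HCT15-FR. Those H3K23su values overlap. H3K27ac there covered 733 and 486 bp in HCT15-Pa and 1305 and 1132 bp in HCT15-FR cells, which do not overlap. HOXB1 differed for H3K27ac, with 0 and 182 bp in HCT15-Pa and 608 and 669 bp in HCT15-FR cells, at scores of at most 5.15. HOXB2 was the other gene with more H3K23su in HCT15-Pa cells, at 395 and 453 bp against 362 and 0 bp, a gap that rests on the second HCT15-FR library. HOXB8 had both marks in all 8 libraries, between 252 and 365 bp for H3K23su and between 162 and 757 bp for H3K27ac, and its lines overlapped.

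The strongest peaks of the family were in HOXC, at the 5′ end of HOXC4, in an intron that HOXC4 and HOXC6 share. H3K23su scores there were 9.18 and 8.85 in HCT15-Pa and 11.97 and 11.03 in HCT15-FR cells, and H3K27ac scores 11.75 and 9.18 in HCT15-Pa and 14.71 and 16.04 in HCT15-FR cells. In the H3K23su lists the weakest of these 4 peaks stood at the 97.5th percentile of its list, and in every other shared HOX region the weakest peak ranked lower. Their length was alike in the lines, 775 and 1124 bp in HCT15-Pa and 1052 and 1040 bp in HCT15-FR cells for H3K23su, and 970 and 1350 bp in HCT15-Pa and 1156 and 1136 bp in HCT15-FR cells for H3K27ac. Scores depend on the depth of the library, which the lists do not give, so the higher scores in HCT15-FR cells are a description. The middle 201 of the 688 bases common to all 8 libraries are printed as the most strongly marked HOX sequence of both lines (hg19, chr12:54411722-54411922, plus strand, CpGs in capitals).
HOXC4 and HOXC6 intron: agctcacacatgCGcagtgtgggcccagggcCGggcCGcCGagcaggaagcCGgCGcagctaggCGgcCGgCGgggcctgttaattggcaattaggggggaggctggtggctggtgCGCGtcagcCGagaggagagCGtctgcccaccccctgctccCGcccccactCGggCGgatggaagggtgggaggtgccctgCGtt
This stretch was 71.6% G+C and held 17 CpGs. At the MANE Select start of HOXC4, in the 3′ part of the cluster, H3K23su was listed in 1 HCT15-FR library only, and H3K27ac covered 0 and 0 bp in HCT15-Pa and 945 and 397 bp in HCT15-FR cells.

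HOXC9, of the posterior group, was longer in HCT15-FR cells in both marks. H3K23su covered 845 and 1097 bp in HCT15-Pa and 1453 and 1553 bp in HCT15-FR cells, and H3K27ac 1102 and 1086 bp in HCT15-Pa and 1278 and 1185 bp in HCT15-FR cells. The lines did not overlap, and the H3K27ac difference was 137.5 bp. Near the MANE Select start of HOXC9 no H3K23su peak was listed. HOXC12 had short H3K23su peaks in every library, 325 and 260 bp in HCT15-Pa and 375 and 377 bp in HCT15-FR cells, and H3K27ac in the second HCT15-Pa library only. Near their annotated 5′ ends HOXC6, HOXC8, HOXC11 and HOXC13 had peaks in some libraries. The longest was 902 bp of H3K23su at HOXC11 in the second HCT15-FR library. At the MANE Select start of HOXC6, 37816 bp away, both marks were present in all 8 libraries. H3K23su there covered 242 and 513 bp in HCT15-Pa and 374 and 647 bp in HCT15-FR cells, which overlap. H3K27ac there covered 146 and 338 bp in HCT15-Pa and 996 and 704 bp in HCT15-FR cells, which do not.

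In HOXD the windows of HOXD1 and HOXD3 were marked in all libraries and those of the other genes mostly were not. HOXD1 had H3K23su peaks of 1100 and 1341 bp in HCT15-Pa and 1234 and 1156 bp in HCT15-FR cells, and H3K27ac peaks of 1204 and 963 bp in HCT15-Pa and 1208 and 1088 bp in HCT15-FR cells. The lines overlapped at HOXD1 in both marks. HOXD3 had 779 and 420 bp of H3K23su in HCT15-Pa and 680 and 856 bp in HCT15-FR cells, which overlap, and 497 and 541 bp of H3K27ac in HCT15-Pa and 917 and 1145 bp in HCT15-FR cells, which do not. These HOXD3 peaks lie near the annotated 5′ end of the gene, which is between the 5′ ends of HOXD8 and HOXD4. At the MANE Select start of HOXD3, 20695 bp away, no H3K23su peak and only 17 bp of H3K27ac were listed. HOXD4, HOXD8 and HOXD9 each had a single H3K27ac peak in 1 library and HOXD12 had peaks in some. Of the 7 genes of all clusters with H3K27ac in a single library, 4 had it in the second HCT15-Pa library, which listed the most HOX genes for that mark.

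By paralog group, the mean H3K23su length per gene was largest in groups 1 to 3, with 430.4 and 438.8 bp in HCT15-Pa and 528.6 and 424.2 bp in HCT15-FR cells over 8 genes. In groups 4 to 8 it was 121.3 and 215.5 bp in HCT15-Pa and 336.9 and 306.9 bp in HCT15-FR cells over 15 genes. In groups 9 to 13 it was 136.1 and 217.9 bp in HCT15-Pa and 297 and 365.2 bp in HCT15-FR cells over 16 genes. Groups 4 to 8 and 9 to 13 separated the lines and groups 1 to 3 did not. For H3K27ac the lines separated in groups 1 to 3, at 444.6 and 459.9 bp against 681.9 and 739.5 bp, and in groups 4 to 8, at 285.1 and 362.5 bp against 528.2 and 638.4 bp. They overlapped in groups 9 to 13, which include HOXB13, at 350.1 and 462 bp against 450.4 and 400.2 bp. Whether these differences vary between paralog groups was not tested. The windows of HOXA3 and HOXA6, and of HOXB3 and HOXB6, overlap, so some peaks count in both groups 1 to 3 and 4 to 8. Windows of HOXB3, HOXB7, HOXC4, HOXC6 and HOXD3 lie 14671 to 37816 bp from the MANE Select start. The groups therefore do not strictly follow position along the cluster.

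The second question was how much of each cluster the peaks covered. HOXA held 6241 and 8696 bp of H3K23su peaks in HCT15-Pa and 12880 and 12859 bp in HCT15-FR cells, 1.72 times as much on average. For HOXB the H3K23su lengths were 7831 and 7601 bp in HCT15-Pa and 9994 and 11240 bp in HCT15-FR cells, 1.38 times as much. HOXC gave 2974 and 4895 bp against 6538 and 7410 bp (1.77 times), and HOXD 1879 and 1761 bp against 2848 and 2884 bp (1.57 times). In all 4 clusters both HCT15-FR libraries exceeded both HCT15-Pa libraries. With the stronger 50% of each list the HOXB difference fell from 2901 to 690 bp and the lines overlapped (exact permutation test, p = 0.667).

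H3K27ac gave the same order of the lines. HOXA held 6926 and 8887 bp in HCT15-Pa and 13099 and 14248 bp in HCT15-FR cells (1.73 times), HOXB 16223 and 16975 bp against 20640 and 23512 bp (1.33 times), HOXC 4589 and 5166 bp against 7396 and 8299 bp (1.61 times), and HOXD 2220 and 2709 bp against 3622 and 3647 bp (1.47 times). With the stronger 50% of each list the HOXC difference was 962.5 bp in place of 2970 bp. Each of the 8 comparisons gave p = 0.333 in the exact permutation test, the smallest it allows. Lines that do not overlap in this direction are common in these data. Among 100 kb bins of the genome with a mean of at least 1000 bp of peaks, 47.5% were longer in both HCT15-FR libraries for H3K23su and 50.0% for H3K27ac, a background that was added after the cluster values were seen. A mean ratio of at least 1.5 besides, which HOXA, HOXC and HOXD reached for H3K23su and HOXA and HOXC for H3K27ac, was found in 23.7% and 24.1% of bins. Longer peaks in both HCT15-Pa libraries were found in 13.5% and 13.9% of bins and in no HOX cluster.

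When lengths were expressed as a share of all peak length in the library, the lines still did not overlap in any cluster. The 100 kb bins were not scaled in this way, so how common this is over the genome was not tested. HOXA took 2.25 ± 0.547 parts per 10000 of the H3K23su length in HCT15-Pa and 3.24 ± 0.0344 in HCT15-FR cells (mean ± SD, n = 2), 1.44 times as much. The ratio was smallest for H3K27ac in HOXB, at 1.12, with 4.24 ± 0.192 in HCT15-Pa and 4.75 ± 0.415 in HCT15-FR cells (n = 2), a difference of 0.510 that is little more than the SD of HCT15-FR. It was largest for H3K23su in HOXC, at 1.48.

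**Figure D4:**
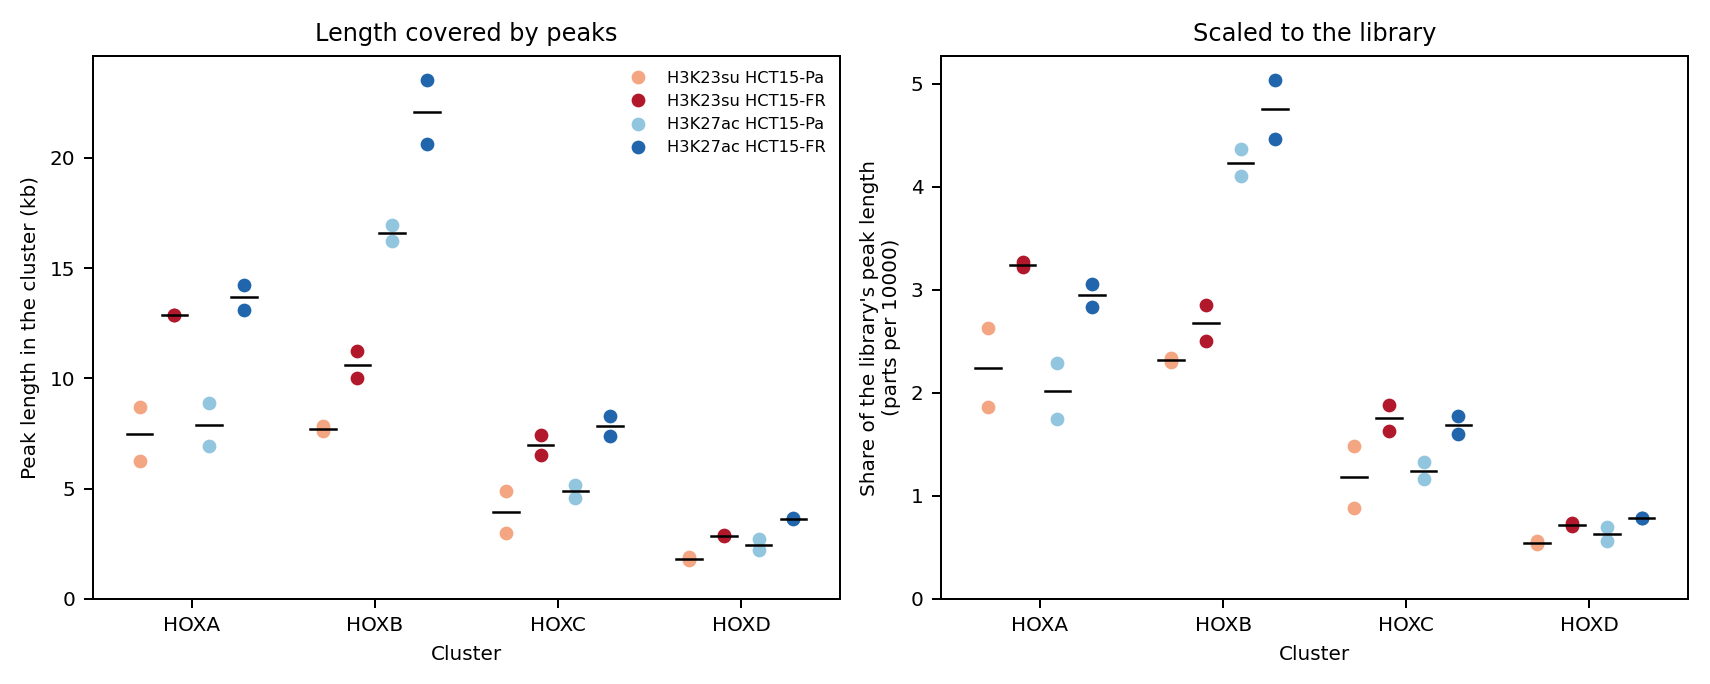
Length covered by peaks in each HOX cluster (left, kb) and the same as parts per 10000 of the library's whole peak length (right), with 1 point per library and a line at the mean of 2. In both panels and for both marks each pair of HCT15-FR points lies above the HCT15-Pa pair of the same cluster, and HOXB holds the most H3K27ac, up to 23512 bp.

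H3K23su peaks were wider and more numerous in HCT15-FR cells in HOXA, and more numerous but narrower in HOXD. Over the whole lists they were also wider, at 507.1 and 505.1 bp on average in HCT15-Pa and 585.7 and 580.6 bp in HCT15-FR cells. In HOXA the mean H3K23su peak width was 512.8 ± 94.7 bp in HCT15-Pa and 759.7 ± 64.1 bp in HCT15-FR cells (SD, n = 2), and the number of peaks 14.5 ± 0.707 and 17 ± 1.41. In HOXD the number of H3K23su peaks was 2.50 ± 0.707 in HCT15-Pa and 5.50 ± 0.707 in HCT15-FR cells, and the mean width 753.4 ± 179.7 and 525.1 ± 62.9 bp (SD, n = 2). HOXB had more H3K23su peaks in HCT15-FR, 27.5 ± 2.12 against 21 ± 4.24, of about the same width. For H3K27ac in HOXD both the number and the width of peaks overlapped between the lines, with mean widths of 503.2 bp in HCT15-Pa and 529.8 bp in HCT15-FR cells. Over the 4 clusters and 4 libraries, the median score percentile of the peaks of a cluster ranged from 29.4 to 80.7 in the H3K23su lists and from 24.2 to 66.6 in the H3K27ac lists.

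Merging the peaks of the 4 libraries of a mark gave 87 H3K23su and 103 H3K27ac regions that touch the clusters. Regions present in all 4 libraries numbered 26 for H3K23su (29.9%, against 23.9% of all regions) and 34 for H3K27ac (33.0%, against 25.2%). FR-only regions numbered 8 for H3K23su (9.20%, against 7.95%) and 7 for H3K27ac (6.80%, against 9.08%). Pa-only regions were 1 for H3K23su (1.15%, against 5.01%) and 3 for H3K27ac (2.91%, against 4.53%). The mixed class held 19 H3K23su regions (21.8%, against 16.3%) and 23 H3K27ac regions (22.3%, against 15.1%), and a single library held 33 (37.9%, against 46.8%) and 36 (35.0%, against 46.1%). The FR-only shares were near the background, and the single Pa-only H3K23su region was that of HOXB13. The peaks at HOXA13 lie beyond the last base of the HOXA cluster. They are therefore neither among these regions nor in the HOXA lengths above. Of the 87 H3K23su regions 67 (77.0%) overlapped an H3K27ac region, and of the 103 H3K27ac regions 64 (62.1%) overlapped an H3K23su region.

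In the shared regions the peaks were wider in HCT15-FR cells. The median ratio of HCT15-FR to HCT15-Pa length was 1.23 over the 26 shared H3K23su regions, against 1.15 over all shared regions, and 1.42 over the 34 shared H3K27ac regions, against 1.10. Both HCT15-FR libraries exceeded both HCT15-Pa libraries at 14 of 26 (53.8%, against 37.9%) and at 17 of 34 (50%, against 36.7%). The widest shared H3K23su region of HOXA, chr7:27161862-27163533 at HOXA-AS2, held 617 and 974 bp in HCT15-Pa and 1667 and 1155 bp in HCT15-FR cells, and that of HOXB, chr17:46696883-46698375 in an intron of HOXB7, held 685 and 839 bp in HCT15-Pa and 800 and 982 bp in HCT15-FR cells. For H3K27ac the widest of HOXA, chr7:27178724-27180497 in an intron of HOXA3, held 1212 and 854 bp in HCT15-Pa and 1347 and 1695 bp in HCT15-FR cells. The lines separated in the HOXA regions and overlapped in that of HOXB7. The widest H3K27ac region of HOXB, chr17:46710164-46712074 at the 5′ end of HOXB7, held 646 and 993 bp in HCT15-Pa and 1376 and 1911 bp in HCT15-FR cells. In HOXC the widest, chr12:54371886-54373677 between HOXC11 and HOXC10, held 1539 and 1286 bp in HCT15-Pa and 1377 and 1309 bp in HCT15-FR cells, with no order between the lines. The widest regions of HOXD lay at HOXD1, and the widest H3K23su region of HOXC at HOXC9, both described above.

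Among FR-only H3K23su regions the one with the highest scores lay between HOXD13 and HOXD12, with its midpoint 2060 bp upstream of HOXD12 (chr2:176962240-176962686), with scores of 6.61 and 7.36 and lengths of 447 and 159 bp. Others lay at HOXB4 and HOXD11, as described, and at chr17:46647802-46648024 in an intron of HOXB3, with 223 and 163 bp. In HOXA, chr7:27150326-27151022 in an intron of HOXA3 held H3K23su peaks of 563 and 207 bp in HCT15-FR cells. In HOXC, chr12:54404874-54405461 at HOXC8 held 584 and 253 bp, and chr12:54369985-54370391 at HOXC11 held 197 and 366 bp. An intronic region of HOXB3 was FR-only in both marks, chr17:46634488-46634962 for H3K23su with 413 and 224 bp, and chr17:46634392-46634908 for H3K27ac with 517 and 282 bp. Further FR-only H3K27ac regions lay over HOXC5, in an intron of HOXC4 (chr12:54446082-54447026, 945 and 397 bp), in an intron of HOXB3 (chr17:46665280-46665558, 279 and 156 bp) and over a coding exon of HOXB6 (chr17:46675310-46675684, 189 and 371 bp). Outside HOXB13, Pa-only H3K27ac regions lay in introns of HOXB3 (chr17:46641019-46642164, 612 and 1036 bp) and HOXB7 (chr17:46695144-46695411, 255 and 267 bp), and no H3K23su peak overlapped either.

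The clusters also hold microRNA genes, which repress messenger RNAs through their seed, and the miR-196 family is known to target HOX transcripts. The MIR196B hairpin, within the annotated HOXA9 gene and between the MANE Select starts of HOXA9 and HOXA10 (chr7:27209099-27209183, minus strand), lay under a peak in all 8 libraries. The H3K23su peaks there spanned 1333 and 1242 bp in HCT15-Pa and 1270 and 1203 bp in HCT15-FR cells, with scores of 7.49 and 6.82 in HCT15-Pa and 4.63 and 4.42 in HCT15-FR cells. The H3K27ac peaks spanned 1075 and 974 bp in HCT15-Pa and 1300 and 785 bp in HCT15-FR cells. Lengths were alike in the lines, and the H3K23su scores were higher in both HCT15-Pa libraries, unlike at HOXC4. The hairpins of MIR196A1, MIR196A2, MIR10B and MIR615 lay under no peak. The mature 5p sequences are shown because MIR196B and the MIR196A genes share the seed (bases 2 to 8, in capitals) and differ by 1 of 22 bases (RefSeq, GRCh38.p14).
hsa-miR-196b-5p: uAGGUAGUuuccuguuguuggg
hsa-miR-196a-5p: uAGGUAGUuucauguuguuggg
The middle 201 of the 514 bases under the peaks of all 8 libraries hold both mature arms of miR-196b (hg19, chr7:27209103-27209303, minus strand, CpGs in capitals).
HOXA9 and MIR196B: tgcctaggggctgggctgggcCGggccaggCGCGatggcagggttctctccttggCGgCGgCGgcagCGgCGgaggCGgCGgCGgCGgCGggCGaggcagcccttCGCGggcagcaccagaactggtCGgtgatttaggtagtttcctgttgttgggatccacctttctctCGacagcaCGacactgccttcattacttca
This stretch was 66.7% G+C and held 19 CpGs.

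Of 24 noncoding RNA genes listed for the clusters 23 were found in the annotation. H3K23su lay near the start of 8 and H3K27ac near the start of 10 in all 4 libraries, among them HAGLR, HOXA10-AS and HOXC-AS2. The peaks near HAGLR are those of HOXD1 and the peaks near HOXC-AS2 those of HOXC9, while the H3K23su peaks near HOXA10-AS are those that span MIR196B. HOTTIP, transcribed away from HOXA13, was FR-only for H3K23su through the peaks of HOXA13. Its window held 0 and 0 bp in HCT15-Pa and 441 and 280 bp in HCT15-FR cells. MIR615, which lies in HOXC5, was FR-only for H3K27ac through the peaks of HOXC5. HOTAIR had peaks in some libraries only, 0 and 486 bp of H3K23su in HCT15-Pa and 358 and 1268 bp in HCT15-FR cells.

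HOX regions were rich in CpG. In the 401 bp about the midpoint, the median G+C content was 57.4% for H3K23su regions of the clusters and 51.4% for all H3K23su regions, and the median observed-to-expected CpG ratio 0.41 and 0.21. For H3K27ac the medians were 59.1% and 53.9%, and 0.52 and 0.23. In regions shared by all libraries the CpG ratio was 0.68 against 0.31 for H3K23su and 0.65 against 0.34 for H3K27ac. The AP-1 motif TGACTCA, searched on both strands, was found in 3 of 87 H3K23su regions (3.45%, against 13.0% of all regions) and in 4 of 103 H3K27ac regions (3.88%, against 13.7%). The core TTTATGG, bound by posterior HOX and CDX factors, was found in 6.90% against 4.59% and in 7.77% against 4.38%. The FOX core TGTTTAC was in 4.60% against 6.73% and in 4.85% against 6.55%. The TEAD core GGAATG was in 20.7% against 22.2% and in 13.6% against 22.2%. None of the 5 printed stretches held any of these 4 motifs. These shares describe letters and not binding.

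Genes that act with or on HOX genes were counted in the same way. CDX1, an intestinal homeobox factor that activates HOX genes, was FR-only in both marks. The shares of all genes that were FR-only are 1.90% for H3K23su and 1.48% for H3K27ac. H3K23su at CDX1 covered 0 and 0 bp in HCT15-Pa and 574 and 456 bp in HCT15-FR cells. H3K27ac there covered 0 and 0 bp in HCT15-Pa and 665 and 508 bp in HCT15-FR cells. Any link to the HOX genes was not tested. CDX2 had H3K27ac in all 4 libraries and H3K23su in the second HCT15-FR library, and CDX4 had neither. Of 9 TALE cofactors, which bind DNA together with HOX proteins, PBX4 and PKNOX1 had both marks in all libraries and MEIS1 had none. No TALE gene was FR-only or Pa-only. All 13 genes of the MLL and H3K27 demethylase list, among them KMT2A, MEN1 and KDM6A, had both marks in all libraries. Of 23 Polycomb genes 17 had H3K23su and 20 had H3K27ac in all 4 libraries. The Polycomb genes RING1, PCGF5, PCGF2 and CBX7 were FR-only for H3K23su, 4 of 23 where the background is 1.90%, and none was Pa-only. PCGF5 had 0 and 0 bp in HCT15-Pa and 1856 and 1353 bp in HCT15-FR cells. For 12 retinoic acid genes, whose products act upstream of HOX genes in the embryo, RARG alone had H3K23su in all libraries. RARB was FR-only for H3K27ac, with 246 and 212 bp in HCT15-FR cells.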

How the data were processed

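Reads were aligned by the authors with Bowtie2 (hg19) and filtered with SAMtools to unique, non-duplicate proper pairs, and the authors called peaks in each library with MACS2, with the broad option for H3K27ac according to the methods. HOMER 4.10 and deepTools are also named in the submitters' processing notes. The deposited lists give positions and the −log10 of the P value. They hold no counts, so no interval or count test was made, the study's read totals were not used, and the spike-in DNA named in the labels does not enter them.

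Genes and starts came from GENCODE release 44 mapped to GRCh37, in which every listed peak ends within its chromosome. A gene was marked with at least 1 bp of a peak within 2 kb of its 5′ end. Overlapping or touching peaks of 1 mark were joined into regions. Values of the 2 lines were compared by the two-sided exact permutation test, whose smallest p for 2 libraries against 2 is 0.333. Counts were set beside those of all genes or regions (background) without a test. Within a mark and line, replicates shared 0.43 to 0.57 of their covered bases (overlap over union), and across lines 0.38 to 0.43. No pairing of libraries by replicate number was seen across genes, with correlations of deviations of 0.01 for H3K23su and -0.01 for H3K27ac. A shared culture or batch was not tested.

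All 39 members entered the counts and the cluster values, and the values of 1 of them and of 1 cofactor gene are not reported here. Values in every library were given for genes called FR-only or Pa-only, the gene with the longest cover in each cluster and mark, genes with 1 mark in all libraries and the other in none, the next 10 by difference among those whose lines do not overlap, and up to 3 FR-only and Pa-only regions and the widest shared region of each cluster and mark. The members and lists were chosen with earlier results of these data known. Other members, the region with the strongest peaks and the MANE Select starts were described after their values were seen. MIR10A and PECAM1 were not matched by symbol. Sequences were read from GRCh37, and mature miRNAs from RefSeq (GRCh38.p14). The alternatives were a common minimum score, equal list lengths, the stronger 50% of each list, windows of 1 and 5 kb, every transcript start, the MANE Select start, clusters with 20 kb on either side, the share of library length, leaving out each library and replicate blocks. Classes and lengths were tested on simulated data. Python 3.11.15, numpy 2.4.6, pandas 2.3.3, pysam 0.24.0, samtools 1.23.1 and matplotlib 3.10.9 were used.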

Additional observations from a re-analysis of the deposited data

How the results depend on the processing

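The differences in peak length kept their direction in all 80 values from the 8 cluster and mark combinations under 10 alternatives, but with the stronger 50% of each list the HOXB difference for H3K23su fell to 690 bp, where the lines overlapped (exact permutation test, p = 0.667), and the HOXC difference for H3K27ac was 962.5 bp. Counts of genes moved more. FR-only genes for H3K23su numbered 3, 0 with the stronger 50% of each list and 6 with windows of 5 kb, without HOXB4, and between 4 and 7 when 1 library was left out. The Pa-only count for H3K23su was 1, 0 with the stronger 50%, and between 1 and 3 when 1 library was left out, the 3 without the first HCT15-FR library. For H3K27ac the FR-only count of 2 was between 3 and 4 and the Pa-only count of 0 between 0 and 4 when 1 library was left out, the 4 without the first HCT15-Pa library. That Pa-only count was 1, HOXB13, with the stronger 50% and with windows of 1 kb. The difference of 5 genes with an H3K23su peak ranged from 3 to 7 when 1 library was left out and was 8.50 with windows of 5 kb. The difference of 1 gene for H3K27ac reversed to -2 without the first HCT15-Pa library and ranged from -2 to 4. Leaving out a library loosens the rule, which then asks for fewer libraries. Both marks were present in all libraries at 9 genes, 5 with the stronger 50%, 18 with 5 kb and 15 with every transcript start. With the MANE Select start there were 7, partly other genes. With replicate blocks, the HOXA difference for H3K23su was 5401 bp (exact sign-flip test, p = 0.5, the smallest for 2 pairs), and no count changed. With the MANE Select start, an alternative chosen after the data were seen, HOXD11 was no longer FR-only in either mark, and HOXC4 became FR-only for H3K27ac. The lists hold no depth, so a missing peak may reflect the threshold.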

Other observations

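Beyond the 5′ end of HOXA13 lies EVX1, a homeobox gene used in the posterior embryo. It was FR-only in both marks, where the shares of all genes are 1.90% for H3K23su and 1.48% for H3K27ac. Its H3K23su peaks covered 0 and 0 bp in HCT15-Pa and 837 and 705 bp in HCT15-FR cells. Its H3K27ac peaks covered 0 and 0 bp in HCT15-Pa and 937 and 730 bp in HCT15-FR cells. EVX2, its counterpart beside HOXD13, had no peak in any library, like HOXD13 itself. Beside HOXB13 the small genes PRAC1 and PRAC2 had no peak, and SKAP1, beyond HOXB1, was Pa-only for H3K27ac with 311 and 492 bp in HCT15-Pa cells. Of the 14 protein-coding neighbours 7 had both marks near the start in all libraries, among them MTX2, LNPK, HIBADH and CBX5, a share of the genes close to that of all genes and above that of the HOX genes between them. No difference between neighbours and HOX genes was tested.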
